A study of Mus musculus with 16 samples.

Results

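Wild-type (WT) cultures of mouse bone marrow stromal cells were compared with cultures of 3 mutant genotypes as one group, using all 16 libraries of the series. The genes described are those whose 4 WT values all lay outside the range of the 12 mutant values, and there were 1359 of them among 16430 genes with enough counts to be tested. In 879 genes every mutant library stood above every WT library, and in 480 genes every mutant library stood below. Each mutant genotype was given equal weight whenever a mean over the mutants was formed.

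Adherent marrow cells of adult C57BL/6J mice were cultured 21 days in osteogenic medium (50 µg/ml ascorbic acid, 10 mM beta-glycerophosphate), and total RNA was sequenced from 4 libraries per genotype. WT cells carried intact Dmp1 and floxed Fgf23 without Cre. Fgf23cKO cells carried the same alleles plus a Dmp1-cre transgene, whose Dmp1 promoter is active in mature osteoblasts and osteocytes and not in the whole culture. Dmp1KO cells lacked Dmp1 in every cell of the animal, had floxed Fgf23 and no Cre. Dmp1KO/Fgf23cKO cells lacked Dmp1 and also carried the Cre. Floxed Fgf23 was thus common to all 16 libraries, and none of these engineered alleles was present in all 3 mutants and absent from WT. Differences in genetic background between the genotypes were not tested. Nothing in the labels ties the libraries to separate animals, and fewer mice than libraries per genotype are given, so the p-values measure the spread between these libraries. Library numbers ran together with genotype, so handling order and genotype cannot be told apart.

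Dentin matrix protein 1 (Dmp1) is an acidic phosphoprotein that osteocytes secrete into bone matrix, and fibroblast growth factor 23 (Fgf23) is the osteocyte hormone that makes the kidney excrete phosphate. Many of the genes described below encode parts of the ribosome and of the machinery that assembles it, makes protein, or removes it. Transcripts of ribosomal proteins typically start with a run of pyrimidines, the terminal oligopyrimidine tract, through which their translation follows the mTOR pathway.

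Libraries held 61.9 to 79.5 M counts (M for mega, the SI prefix), and 18914 to 19094 genes were detected in WT against 18077 to 18796 in the mutants. Fgf23 stood at 0.633 to 1.08 CPM (counts per mega-count of the scaled library total) in WT. Its mean was 0.0306 ± 0.0209 CPM in Fgf23cKO (SD, n = 4), 3.69 ± 1.88 in Dmp1KO and 0.0612 ± 0.0302 in Dmp1KO/Fgf23cKO. Dmp1 had 504 ± 207 CPM in WT, 1090 ± 408 in Fgf23cKO, 94.3 ± 12.9 in Dmp1KO and 68.3 ± 30 in Dmp1KO/Fgf23cKO. Neither targeted gene belonged to the 1359, because the mutants lay on both sides of WT. Libraries 1 and 2 of Dmp1KO/Fgf23cKO stood apart from 3 and 4 (50 top genes took 24.0 and 24.4% of their counts, against 35.8 and 32.4%), and counts without either pair are given among the alternatives. In these bulk cultures, fewer cells of a type and less RNA per cell cannot be told apart.

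Across all genes, edgeR's quasi-likelihood test with Benjamini-Hochberg adjustment called 2154 genes higher in the mutants (13.1%) and 1826 lower (11.1%) at an adjusted p under 0.05. Scaling by library totals alone gave 1303 higher and 2881 lower, so the balance between directions depends on the scaling. All 12 mutant libraries lay above WT for 5.35% of genes tested and below for 2.92%. Of the 879 genes above WT 873 were called higher, and of the 480 below 466 were called lower, which the choice of genes by these same values favours. A further 2641 called genes had WT and mutant values that overlapped.

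Most separations were narrow. The gap, the difference in log2 CPM between the nearest WT and the nearest mutant library, had a median of 0.102 for genes above and 0.0755 for genes below. It reached 0.5 in 31 genes above and 20 below, and 1 in 7 and 8. At the edge of the rule, Mrpl52 was included with a gap of 3.02e-05 and Rhno1 was left out with a gap of -0.000125, while among genes below C2cd5 was included with 0.000291 and Cul7 left out with -0.000368. Mean changes were larger than the gaps, with a median log2 difference of 0.50 above and -0.58 below, against -0.02 over all genes tested. A 2-fold change or more was seen in 89 genes above and 113 below.

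The size of the separation varied with genotype. For the 879 genes above, the median log2 difference from WT was 0.41 in Fgf23cKO, 0.61 in Dmp1KO and 0.47 in Dmp1KO/Fgf23cKO. For the 480 below it was -0.52, -0.65 and -0.53. Dmp1KO carried the largest change in 649 of the 879 and in 292 of the 480. The mutant library closest to WT came from Fgf23cKO in 409 genes above (46.5%), from Dmp1KO/Fgf23cKO in 349 and from Dmp1KO in 121. A separate test of a difference among the mutants called 1963 genes (11.9%). It compares no WT mean, but its estimate of spread came from all 16 libraries. Among the called genes were 119 of the genes above (13.5%) and 35 of those below (7.29%). Choosing genes with WT outside the mutant range favours a small spread among the mutants, so these shares are descriptions. The same separation for another genotype against the other 12 libraries occurred in 437 genes for Fgf23cKO, 222 for Dmp1KO and 18 for Dmp1KO/Fgf23cKO. Genes above were nearly all protein-coding, 847 of 879, whereas genes below included 395 protein-coding genes and 68 long noncoding RNAs.

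The widest gap among named genes above with a mean of at least 5 CPM belonged to Zfp984, a zinc finger gene on chromosome 4 (147753974 to 147812229, GRCm38.p6). It measured 2.11, 2.97, 3.06 and 2.71 CPM in the WT libraries, while the mutants ran from 10.8 through a median of 16.5 to 22.1 CPM. The lowest mutant was thus several times the highest WT library, and the 3 mutant means lay close together at 15.2, 14.9 and 19.6 CPM. The mutant mean was 6.05-fold higher (log2 2.60 ± 0.18 SE). Reads of Zfp984 can be shared with near-identical zinc finger genes beside it, so its count is uncertain.

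Pdcd5, which encodes programmed cell death protein 5, came next on chromosome 7 (35641985 to 35647482). WT libraries held 3.23, 3.48, 3.39 and 3.70 CPM and the mutants 8.81 to 19.9 with a median of 15.5. There was no overlap in any genotype, and the mutant mean was 4.21-fold higher (log2 2.08 ± 0.13 SE). Hist4h4, a histone H4 gene on chromosome 6 (136803993 to 136804431), had 4.58, 4.98, 5.10 and 4.44 CPM in WT and 10.9, 15.8 and 23.0 as the lowest, median and highest mutant values, a 3.42-fold difference. Histone H4 genes are nearly identical in sequence, so this count is also uncertain. Rab6b, a small GTPase of Golgi traffic on chromosome 9 (103111667 to 103185276), showed the largest mean change of the group at 8.42-fold. Its WT values were 1.86, 0.906, 1.17 and 1.35 CPM, and its mutants spread widely from 3.17 to 21.0.

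Ndufb7, a subunit of respiratory complex I and another gene with a wide gap, measured 6.08, 6.65, 6.49 and 5.80 CPM in WT against 12.8, 19.4 and 25.3 as the lowest, median and highest mutant values, 3.05-fold higher. Cox4i1, a subunit of cytochrome c oxidase, was more abundant and tighter, with 78.0, 78.4, 82.5 and 73.9 CPM in WT and 122 to 153 in the mutants, a 1.69-fold difference. Ebna1bp2, a nucleolar factor of large subunit assembly, had 7.75, 8.48, 8.60 and 7.94 CPM in WT and 14.3 to 26.4 in the mutants. Rrp15, which acts in the same process, had 3.65 to 4.81 CPM in WT and 7.49 to 12.9 in the mutants. Scarna13, a small Cajal body RNA that guides RNA modification, had 2.20 to 3.15 CPM in WT and 5.0 to 14.6 in the mutants. These 5 genes were higher in each library of each mutant.

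Timp1 was the most abundant of the genes above with wide gaps. It encodes a secreted inhibitor of matrix metalloproteinases, lies on chromosome X (20870166 to 20874737) and measured 529, 517, 503 and 501 CPM in WT. The mutants ran from 852 through a median of 1014 to 1499 CPM, all above WT, and their mean was 2.07-fold higher (log2 1.05 ± 0.13 SE). Of 23 tested genes in a list of matrix proteases and their inhibitors, Timp1 alone was separated, with 1 gene called higher and 3 lower. Commd1, a protein of copper handling and endosomal sorting, was 1.74-fold higher, with 30.5 to 34 CPM in WT and 50.6 to 63.9 in the mutants.

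**Figure D1:**
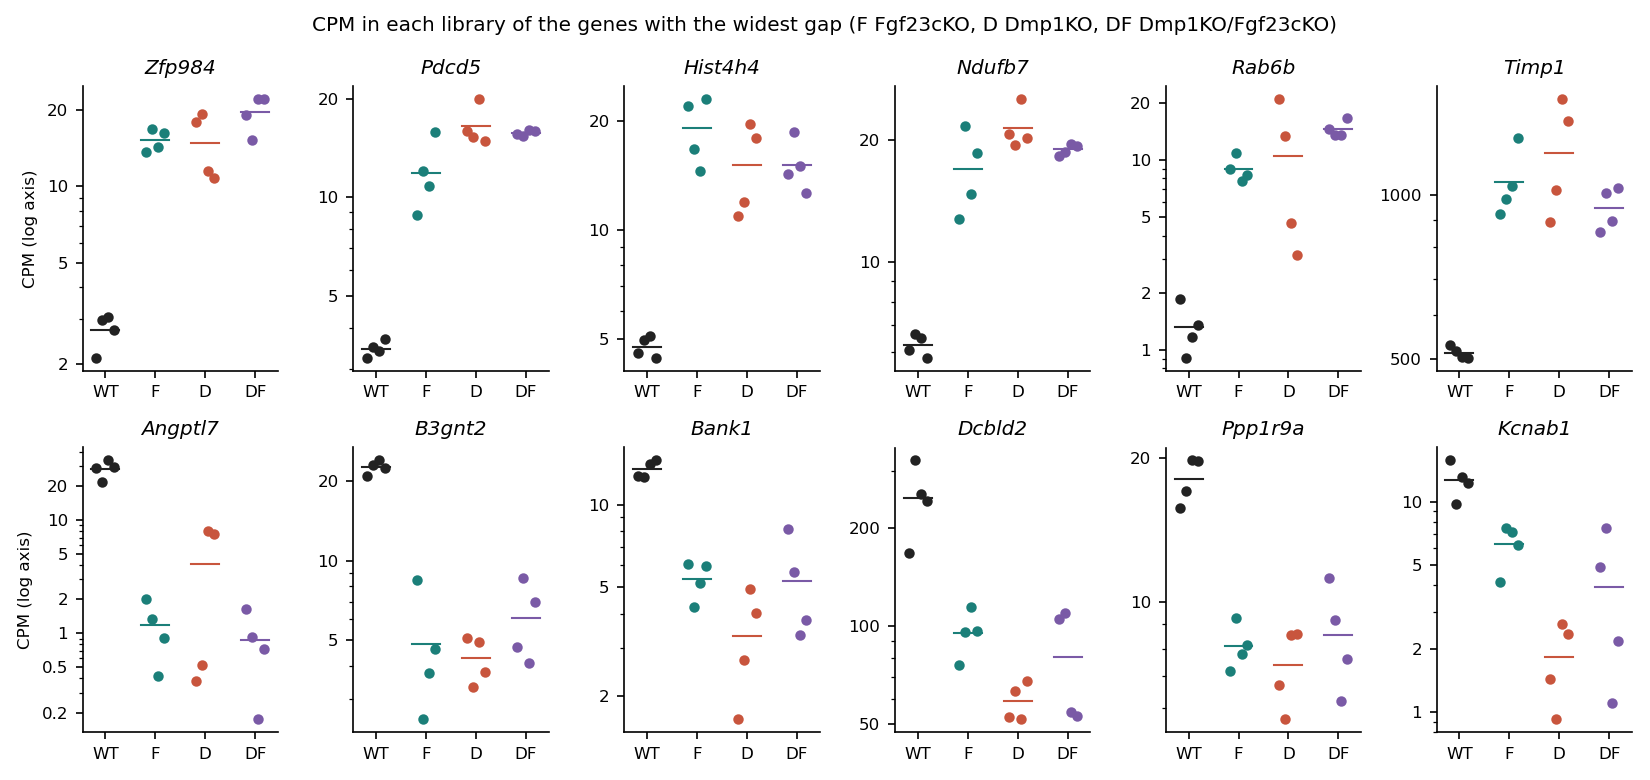
Level of 12 genes with wide gaps in each of the 16 libraries (y axis, CPM on a log scale; points are libraries and lines group means; F, D and DF stand for Fgf23cKO, Dmp1KO and Dmp1KO/Fgf23cKO). In no panel does a WT point reach a mutant point, from Zfp984, with 2.11 to 3.06 CPM in WT and 10.8 to 22.1 in the mutants, to Angptl7, with 21.5 to 33.5 CPM in WT and 0.174 to 8.04 in the mutants.

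Among genes below WT, Angptl7 had the widest gap of the named genes with at least 5 CPM. It encodes a secreted angiopoietin-like protein and lies on chromosome 4 (148495181 to 148500462). WT libraries held 28.6, 21.5, 33.5 and 29.0 CPM, and the mutants 0.174, 0.924 and 8.04 as the lowest, median and highest values. WT and mutants did not overlap, although the mutants differed among themselves by more than the distance to WT, and the mutant mean was 0.0577 of WT (log2 -4.12 ± 0.58 SE). The log2 difference was -4.58 in Fgf23cKO, -2.77 in Dmp1KO and -5.00 in Dmp1KO/Fgf23cKO.

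B3gnt2, an enzyme that extends poly-N-acetyllactosamine chains on glycoproteins (chromosome 11, 22834739 to 22860336), stood at 20.8, 23.1, 23.9 and 22.4 CPM in WT. Mutant values were 2.51 to 8.59 with a median of 4.67, and the mean was 0.223 of WT (log2 -2.17 ± 0.22 SE). WT values were tight and far from the nearest mutant. Dcbld2, a transmembrane receptor-like protein of chromosome 16 (58408535 to 58469745), had 168, 323, 254 and 243 CPM in WT and 51.8, 72.0 and 114 in the mutants. Kcnab1, an accessory subunit of voltage-gated potassium channels, had 9.72 to 15.7 CPM in WT and 0.921 to 7.54 in the mutants, with the lowest mean in Dmp1KO. Ppp1r9a, the actin-binding protein neurabin, fell to 0.443 of WT, from 15.7 to 19.8 CPM down to 5.69 to 11.2. Cmah, which makes N-glycolylneuraminic acid, fell to 0.536 of WT, and Tbc1d23, a protein of vesicle capture at the Golgi, fell to 0.709 with WT values of 69.8 to 72.9 CPM and mutant values of 44.4 to 55.4.

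Some genes below WT are best known from blood cells. Bank1, a scaffold protein of B cell signalling, had 12.8, 12.6, 14.2 and 14.5 CPM in WT and 1.64 to 8.17 in the mutants (0.336 of WT). Siglece, a sialic acid-binding receptor of myeloid cells, had 7.81 to 9.41 CPM in WT and 2.0 to 6.24 in the mutants. Cd163, the haptoglobin-haemoglobin scavenger receptor of macrophages, had 12.1 to 16.3 CPM in WT and 2.64 to 11.1 in the mutants. Of 17 tested macrophage markers, 5 were called lower and 2 higher, and Cd163 was the only one separated, whereas scaling by library totals gave 7 lower, none higher and 2 separated. Their summed level was 8530 to 9530 CPM in WT, 8060 to 12100 in Fgf23cKO, 6470 to 10300 in Dmp1KO and 5700 to 11600 in Dmp1KO/Fgf23cKO, so the sums overlapped. Of 12 lymphocyte markers 4 passed the filter on low counts. The list's summed level was 3.99 to 7.89 CPM in WT, 3.69 to 8.74 in Fgf23cKO, 2.84 to 4.51 in Dmp1KO and 1.46 to 11.1 in Dmp1KO/Fgf23cKO. Cd8a, a co-receptor of T cells named after its values were seen, was the 1 separated and called gene of the list, with 1.0 to 1.29 CPM in WT and 0.058 to 0.765 in the mutants (edgeR, adjusted p = 0.0214). The part of macrophage or lymphocyte number in the changes of Bank1, Siglece and Cd163 was not tested.

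The clearest group among the separated genes was that of the cytoplasmic ribosomal proteins. All 81 listed genes were tested, 77 were called higher and none lower, and 58 (71.6%) were separated, all above WT, where 13.1% of all genes were called higher and 5.35% were separated above. The median log2 difference over the list was 0.66, against -0.02 over all genes, and was 0.49 in Fgf23cKO, 0.89 in Dmp1KO and 0.60 in Dmp1KO/Fgf23cKO. The summed level was 13800 to 15000 CPM in WT and 16600 to 27800 over the mutants. Scaling by library totals gave 70 called higher, 53 separated above and a median of 0.55. Many ribosomal protein genes have pseudogenes that share reads with them, and how the authors' software assigned such reads is not given in the sources used here.

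Rps28, of the small subunit, showed the widest gap of the list, on chromosome 17 (33823036 to 33824562). WT libraries held 65.3, 66.1, 65.1 and 63.6 CPM and the mutants 110, 170 and 244 as the lowest, median and highest values, 2.63-fold higher (log2 1.39 ± 0.14 SE). WT values were tight, and the nearest mutant came from Fgf23cKO. Rpl38, of the large subunit (chromosome 11, 114667818 to 114672333), had 52, 53.3, 50.8 and 47.4 CPM in WT and 84.9, 123 and 180 in the mutants. Rps23, of the decoding centre (chromosome 13, 90923122 to 90924732), had 47.9, 44.1, 53.1 and 41.3 CPM in WT and 83.3, 122 and 166 in the mutants. Fau, which encodes a ubiquitin-like protein fused to ribosomal protein S30 (chromosome 19, 6057947 to 6059524), was 1.82-fold higher, with 131, 136, 142 and 117 CPM in WT and 208, 230 and 289 in the mutants. The lowest mutant of these 4 was a Fgf23cKO library each time.

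The windows around the annotated starts of 8 separated ribosomal protein genes with wide gaps are shown because the pyrimidine run at the start is the feature these transcripts are known for. Each window holds 15 bases before the RefSeq start and 15 from it (GRCm38.p6, read on the strand of the gene), and capitals mark a run of 8 or more letters that are each C or T.
Rps28, chr17:33824548-33824577, minus strand: ggtaccgcgtgcggtctcgcgagagcgaaa
Rpl38, chr11:114668565-114668594, plus strand: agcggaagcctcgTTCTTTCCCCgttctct
Rps23, chr13:90923107-90923136, plus strand: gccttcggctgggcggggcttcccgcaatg
Fau, chr19:6057932-6057961, plus strand: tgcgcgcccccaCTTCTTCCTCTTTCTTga
Rpl19, chr11:98026909-98026938, plus strand: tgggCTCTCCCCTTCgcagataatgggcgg
Rpl24, chr16:55966260-55966289, plus strand: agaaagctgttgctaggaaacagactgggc
Rpl7a, chr2:26910792-26910821, plus strand: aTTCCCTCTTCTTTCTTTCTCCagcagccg
Rps25, chr9:44407699-44407728, plus strand: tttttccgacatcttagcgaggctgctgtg
Such a run was present in 20 of the 41 separated ribosomal protein genes with a window (48.8%) and in 28 of 60 of the whole list (46.7%). It was present in 3760 of 27025 genes of the table with a window (13.9%). The other genes above WT had it in 82 of 660 (12.4%), and the genes below in 69 of 373 (18.5%). Where a gene had more than one annotated start, the window with the longest run was used. The run was read on the gene's strand only, it is a description of these letters and not a site, and a start annotated a few bases away can miss it, and the windows of Rps28, Rps23, Rpl24 and Rps25 had none.

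Ribosome assembly factors were higher as well. Of 40 genes of ribosome biogenesis and the nucleolus, 35 were called higher, none lower, and 25 were separated above WT, with a median log2 difference of 0.48. Nolc1, a nucleolar phosphoprotein, had 32.4, 32.8, 36.1 and 32.2 CPM in WT and 47.8 to 71.0 in the mutants, 1.69-fold higher. Utp3, a factor of small subunit processing, had 9.83 to 12.2 CPM in WT and 15.9 to 30.4 in the mutants, 2.01-fold higher. Of 20 hosts of small nucleolar RNAs, which guide the modification of ribosomal RNA, 13 were called higher and 2 lower, and 5 were separated above and 1 below. Gas5, one of these hosts, had 24.9 to 27.4 CPM in WT and 29.3 to 93.8 in the mutants, so that the lowest mutant, of Fgf23cKO, lay close to WT while the highest lay far above. The call for Gas5 was lost without the Dmp1KO genotype (edgeR, adjusted p = 0.0977).

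Translation factors and mitochondrial ribosomal proteins formed 2 further groups. Of 38 translation factors 26 were called higher, none lower, and 19 were separated above, with a median log2 difference of 0.33, and 12 were separated under scaling by library totals. Eif3g, a subunit of initiation factor eIF3, rose 1.59-fold from 35.6 to 39.8 CPM in WT to 50.7 to 71.5 in the mutants. Of 74 mitochondrial ribosomal proteins 51 were called higher and 25 were separated above, numbers that fell to 32 and 13 under scaling by library totals. Mrps15 was 1.95-fold higher with 6.62 to 8.36 CPM in WT and 10.4 to 19.5 in the mutants. Among 29 aminoacyl-tRNA synthetases and amino acid transporters, 21 were called higher and 7 separated, with a median of 0.62. Rars, which charges tRNA with arginine, was 1.59-fold higher, with 43.9 to 50.7 CPM in WT and 59.6 to 92.4 in the mutants. In this list 12 genes also differed among the mutants. The list median lay 0.0231 and 0.00641 log2 units from the WT mean in libraries 1 and 2 of Dmp1KO/Fgf23cKO, inside the WT range of -0.0443 to 0.0369, and at 0.886 and 0.827 in its libraries 3 and 4. In Fgf23cKO it was 0.171 to 0.334 and in Dmp1KO 0.672 to 1.0.

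**Figure D2:**
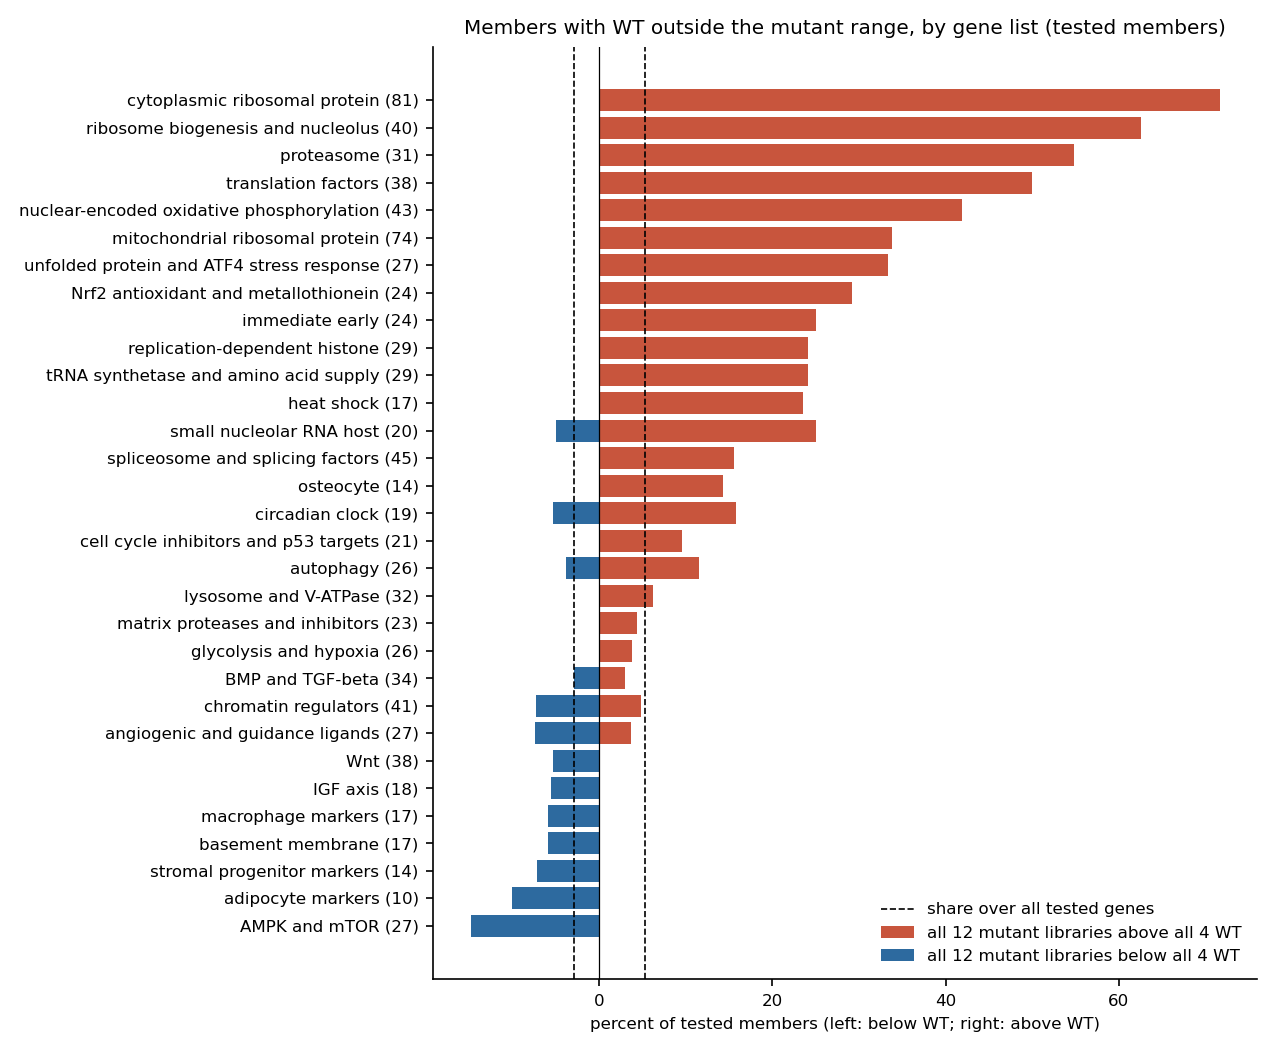
Share of tested members of each gene list (x axis, percent) with all 12 mutant libraries above WT or below WT, for lists of at least 10 tested members and at least 1 separated gene; dashed lines mark the shares over all genes tested, 5.35% above and 2.92% below. Cytoplasmic ribosomal proteins lead with 71.6% above, followed by ribosome biogenesis with 62.5%.

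Protein turnover and respiration showed the same direction. Of 31 proteasome genes 22 were called higher, none lower, and 17 (54.8%) were separated above, at a modest median log2 difference of 0.27. Psmc1, an ATPase of the proteasome cap, had 46.7, 48.2, 49.6 and 40.4 CPM in WT and 59.9 to 76.2 in the mutants, 1.41-fold higher. No proteasome gene was called for a difference among the mutants, against 11.9% of all genes tested. The list median still ran from 0.124 to 0.387 log2 units from the WT mean over the mutant libraries. Of 43 nuclear-encoded genes of oxidative phosphorylation 32 were called higher, none lower, and 18 were separated above, with a median of 0.35. Atp5j, a subunit of the ATP synthase, had 20.9, 21.7, 21.0 and 19.4 CPM in WT and 30.4, 51.1 and 66.7 in the mutants. Under scaling by library totals 13 proteasome and 20 oxidative phosphorylation genes were called higher, with 9 and 15 separated.

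Stress and early response genes were among the separated ones. Of 27 genes of the unfolded protein and ATF4 response 19 were called higher, none lower, and 9 were separated above. Ddit3, the transcription factor CHOP, had 6.13, 5.66, 4.90 and 5.14 CPM in WT and 8.51, 24.4 and 41.1 in the mutants, and its log2 difference ran from 1.11 in Fgf23cKO through 1.97 in Dmp1KO/Fgf23cKO to 2.74 in Dmp1KO. Of 17 heat shock genes 10 were called higher and 1 lower, and Hspe1, the mitochondrial chaperonin partner, was 1.92-fold higher. Scaling by library totals gave 6 heat shock genes called higher. Of 24 immediate early genes 12 were called higher and 6 separated above. Atf3, a stress-induced transcription factor, was 2.22-fold higher with 17.9 to 21.4 CPM in WT and 27.4 to 64.0 in the mutants, and Myc, which drives ribosome production, was 1.88-fold higher with 33.3 to 37 CPM in WT and 46 to 103 in the mutants. Vegfa was the only separated gene of 26 in the glycolysis and hypoxia list, with 71.0 to 91.0 CPM in WT and 120 to 256 in the mutants.

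Of 24 genes of the Nrf2 antioxidant and metallothionein list 9 were called higher, 1 lower, and 7 were separated above, against 4 separated under scaling by library totals. The 7 were Keap1, the repressor of Nrf2, the antioxidant enzymes Sod1 and Gpx1, the haem oxygenase Hmox1, Mt1, Mt2 and Fth1. Fth1, the ferritin heavy chain, had 1223, 1218, 1451 and 1254 CPM in WT and 1871 to 3184 in the mutants, 1.82-fold higher. Mt2 measured 0.802 to 2.07 CPM in WT and 2.59 to 23.0 in the mutants, and Mt1 18.2 to 25.9 and 30.1 to 71.9. The metallothioneins Mt1 and Mt2 are close paralogs that bind zinc and copper, and their counts may share reads. Sqstm1, the autophagy receptor p62, was 1.54-fold higher, while of 26 autophagy genes 6 were called higher and 1 lower, with 3 higher under scaling by library totals. Of 29 replication-dependent histone genes 9 were called higher and 7 separated above, and besides Hist4h4 the gene Hist1h2ac had 0.923 to 1.69 CPM in WT and 2.31 to 5.34 in the mutants. Among 37 genes of DNA replication and mitosis 1 was called in each direction and none was separated.

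**Figure D3:**
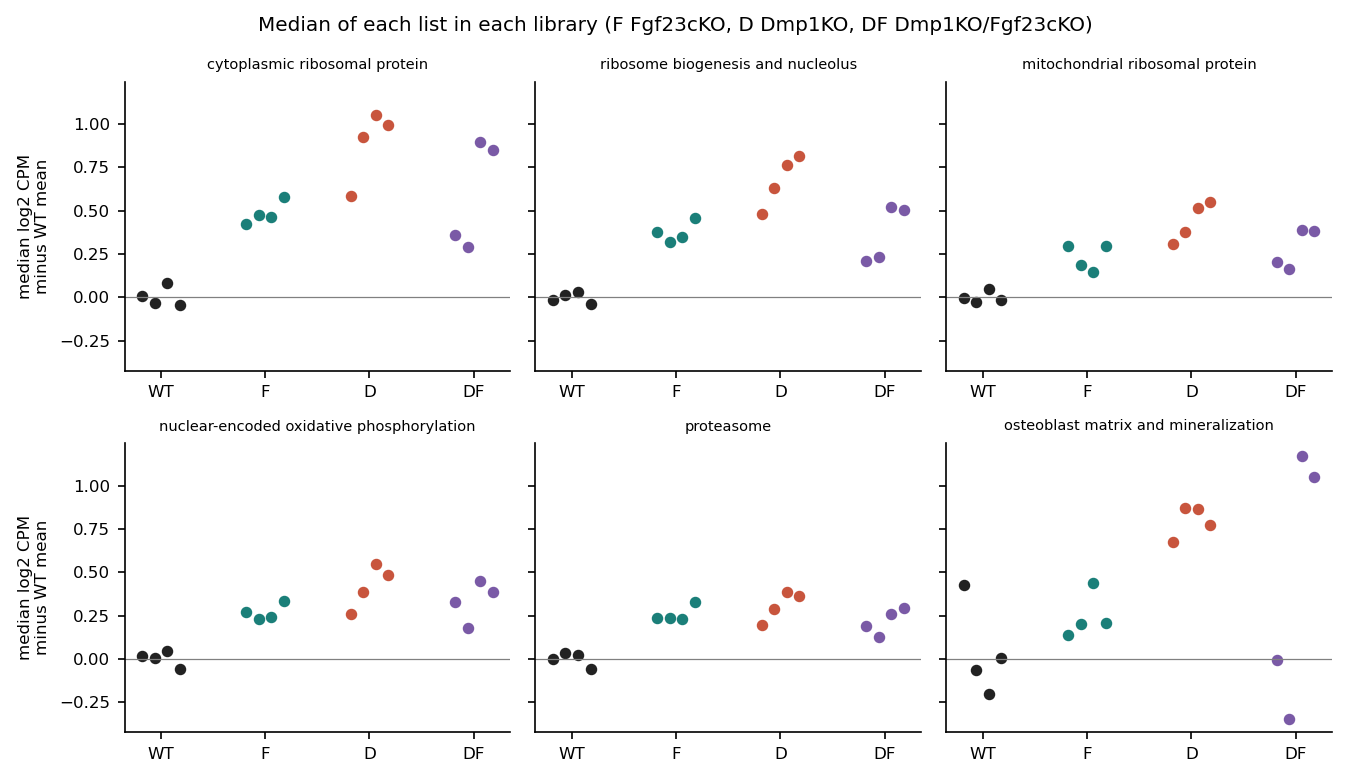
Median log2 CPM of the members of 6 gene lists in each of the 16 libraries, minus the mean of the WT libraries (y axis, log2 difference; points are libraries). For cytoplasmic ribosomal proteins the WT libraries lie between -0.0438 and 0.0837 and the mutants between 0.29 and 1.05.

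Of the 53 gene lists, 15 had a member separated below WT and 24 a member above. In the AMPK and mTOR list, which holds kinases and regulators of energy and nutrient sensing, 4 of 27 genes were separated below and none above, with 4 called lower and 2 higher. Over all genes tested 2.92% were separated below and 5.35% above, with 11.1% called lower and 13.1% higher. Prkab2, a regulatory subunit of AMPK, had 30.9, 30.7, 31.8 and 30.4 CPM in WT and 13.7, 19.9 and 27.2 in the mutants, 0.610 of WT. Deptor, an inhibitor of mTOR, had 25.5 to 35.9 CPM in WT and 13.7 to 24.9 in the mutants, 0.607 of WT. Pik3r1, a regulatory subunit of phosphoinositide 3-kinase, was at 0.730 of WT. The median log2 difference of the list was -0.06, against -0.02 over all genes tested. After an offset for length and GC content, 1 gene of the list was separated below and 2 above.

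Of 38 Wnt genes 8 were called lower and 4 higher, and 2 were separated below. Over all genes tested 11.1% were called lower, 13.1% higher, and 2.92% were separated below. Lrp5, a Wnt co-receptor whose loss lowers bone mass, had 75.8, 74.0, 72.6 and 72.1 CPM in WT and 40.9, 59.1 and 68.8 in the mutants, 0.754 of WT. Hspg2, the basement membrane proteoglycan perlecan, was the 1 separated gene of 17 in its list, with 914 to 1003 CPM in WT and 526 to 864 in the mutants. In that list 6 genes were called lower and none higher. The fibrillar collagen and interstitial matrix list had 8 of 29 called lower and 2 higher, and none separated, and the offset for length and GC content left 4 called lower.

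No gene of the osteoblast list was among the separated ones. Of 22 osteoblast matrix and mineralization genes 5 were called higher and none lower, at a median log2 difference of 0.45. In single libraries the list median was -0.204 to 0.427 log2 units from the WT mean in WT, -0.00475 and -0.349 in libraries 1 and 2 of Dmp1KO/Fgf23cKO, and 1.17 and 1.05 in its libraries 3 and 4. Bglap, osteocalcin, had 223, 88.2, 112 and 128 CPM in WT and 120, 520 and 1283 as the lowest, median and highest mutant values, so the groups overlapped. Its mean was 3.99-fold higher (edgeR, adjusted p = 0.0104), a call lost without Dmp1KO (adjusted p = 0.0613), and its near-identical copies make the count uncertain. Col1a1, which encodes a chain of type I collagen, was 1.93-fold higher (edgeR, adjusted p = 0.0478) with 24880 to 43690 CPM in WT and 25570 to 125600 in the mutants, a call lost under most alternatives (adjusted p up to 0.18, without the Dmp1KO genotype). Without libraries 1 and 2 of Dmp1KO/Fgf23cKO the log2 difference was 2.25 for Bglap and 1.16 for Col1a1, and without libraries 3 and 4 it was 1.38 and 0.54, all still called. Of 12 bone genes fixed for report, the others (Runx2, Sp7, Alpl, Ibsp, Spp1, Mepe, Phex, Sost, Enpp1 and Ank) did not pass the test, and in each of them WT and mutant values overlapped. Of 14 osteocyte genes 3 were called higher and 2 lower, and 2 (14.3%, against 5.35% of all genes tested) were separated above, Capg, an actin-capping protein, and Npy, neuropeptide Y. Neither was separated under scaling by library totals. Capg had 122 to 136 CPM in WT and 146 to 243 in the mutants.

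Markers of other cells were checked for the same separation. Plin4, a coat protein of fat droplets, was the only separated gene of 10 adipocyte markers, with 8.25, 8.24, 14.9 and 20.5 CPM in WT and 2.74 to 8.22 in the mutants, where 3 markers were called lower, and it was not separated under scaling by library totals. Prrx1 was the only one of 14 stromal progenitor markers, with 5 called lower and none higher, and had 489 to 512 CPM in WT and 318 to 484 in the mutants. After the offset for length and GC content its log2 difference was -0.09 (edgeR, adjusted p = 0.341) and WT and mutants overlapped. No chondrocyte, osteoclast, endothelial, smooth muscle, neutrophil or skeletal muscle marker was separated, against 5.35% above and 2.92% below over all genes tested. These lists are short, with 15, 12, 8, 11, 4 and 4 tested members. Of them 4 chondrocyte and 2 smooth muscle markers were called lower and 1 endothelial marker higher, where 11.1% of all genes were called lower and 13.1% higher. Hba-a1, an alpha-globin gene with a near-identical copy, had 2.99, 2.02, 2.24 and 3.79 CPM in WT and 0.470 to 1.86 in the mutants. The red cell markers as a whole were near the detection limit in all cultures, 3 of 10 passing the filter with a sum of 2.43 to 4.61 CPM in WT and 0.899 to 2.41 in the mutants. Whether carried-over blood cells took part in any result was not tested.

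Some separated genes changed by nearly the same amount in all 3 mutants. Those with a change of at least 1.5-fold and the smallest range of mutant means were sought in each direction. Among them, Commd1 had log2 differences of 0.81, 0.76 and 0.83 in Fgf23cKO, Dmp1KO and Dmp1KO/Fgf23cKO. Exosc6, a subunit of the RNA exosome, had 0.87, 0.89 and 0.92, and Bola2, an iron-sulfur cluster protein, had 0.63, 0.67 and 0.68. Below WT, Ston1, an endocytic adaptor, had -0.66, -0.65 and -0.61, and Dennd1c, an activator of Rab35, had -0.64, -0.66 and -0.64. Prkab2 belonged to the same group with -0.67, -0.80 and -0.68. Plin4 did too, at -1.46, -1.35 and -1.19, although its WT libraries were spread.

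Separated genes also differed in length. Exon length was known for 91.3% of genes tested, and its median was 2044 bases for genes above, 4758 for genes below and 3277.5 for all. Of 297 genes of up to 750 bases 23.9% were above WT and 1.01% below. Of 1056 genes longer than 8000 bases 0.947% were above and 7.86% below. The shares changed in steps between these ends, and in single libraries the median deviation of the shortest genes was -0.262 to -0.228 in WT and -0.00545 to 0.401 in the mutants, without overlap. Genes of up to 1000 bases took 2.34 to 2.47% of counts in WT, 2.78 to 3.11% in Fgf23cKO, 3.02 to 3.41% in Dmp1KO and 2.83 to 3.12% in Dmp1KO/Fgf23cKO.

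Length and the gene groups overlapped only in part. Among 616 genes of up to 1000 bases outside the lists of cytoplasmic ribosomal, mitochondrial ribosomal and oxidative phosphorylation genes, 88 (14.3%) were above WT and 6 below. With an offset for exon length and GC content fitted in each library, an alternative chosen after seeing the data, 1224 genes were above WT and 191 below, and 682 of 849 above and 164 of 409 below with a known length were still separated. Although only genes with a known length entered it, this fit called 3010 genes higher, against 2154 without the offset. The 1224 above WT stood against 879 without the offset, and list counts are to be read beside these shifts. In the same fit 67 of the 81 cytoplasmic ribosomal genes were called higher and 45 were separated above, against 77 and 58 without the offset. The 40 biogenesis genes, whose median exon length was 2753 bases, gave 38 called higher and 29 separated. The 31 proteasome genes gave 22 and 17. Other lists changed as well. The 74 mitochondrial ribosomal genes gave 46 called higher and 15 separated, against 51 and 25 without the offset. The Nrf2 and metallothionein list gave 10 and 3, against 9 and 7. Only 9 of the 20 small nucleolar RNA hosts entered this fit, which needs a known length, and of these 5 were called higher and 1 was separated. Among single genes, Mrpl52 lost its call (adjusted p = 0.308), as did C2cd5 (adjusted p = 0.0518), and Npy, Cd163, Exosc6, Pik3r1, Deptor and Plin4 stayed called while WT and mutants overlapped. The part of exon length in the separation of single genes was not tested.

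**Figure D4:**
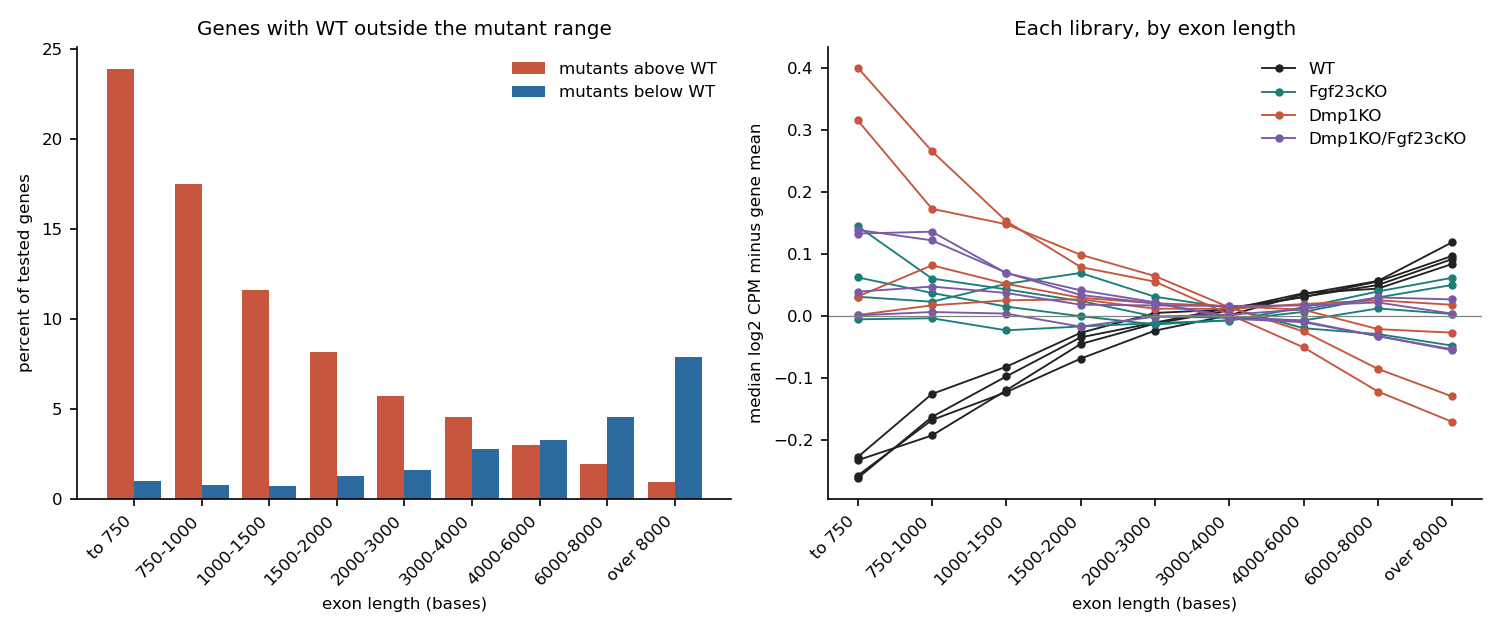
Left, share of genes above and below WT (y axis, percent) by exon length (x axis, bins in bases); right, median log2 deviation of the genes of each bin in every library (y axis), coloured by genotype. The share above falls from 23.9% in the shortest bin to 0.947% in the longest, and WT libraries lie below all mutants in the shortest bin (WT up to -0.228, mutants from -0.00545) and above all of them in the longest (WT from 0.0839, mutants up to 0.0616).

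The separated genes were spread over the genome (megabases, Mb, of GRCm38.p6), with 6.14 to 10.3% of the tested genes of each chromosome outside. Within 5 Mb of Dmp1 4 of 80 genes tested (5%) were separated, and within the same distance of Fgf23 8 of 117 (6.84%), against 8.27% of all genes tested. These shares depend on the 5 Mb limit, since a window starting 7.92 Mb beyond Fgf23, described below, held 9 of 21 (42.9%). Windows of 2 Mb starting at odd Mb positions were searched for genes with a gap of at least 0.5, and the windows described here were chosen after their values were seen. Among 606 windows with at least 10 tested genes, 5 held 2 or more such genes and 1 held 4.

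That window lay on chromosome 4, from 147 to 149 Mb, and held Zfp984 and Angptl7, which had the widest gaps above and below among named genes with a mean of at least 5 CPM. Of 34 genes tested there 9 (26.5%) were separated, 6 above and 3 below, within 0.947 Mb. Zfp985, near Zfp984, was below WT with 1.41 to 1.85 CPM in WT and 0.346 to 0.857 in the mutants, while Zfp979 was above with 0.306 to 0.738 and 1.06 to 2.87. Plod1, a lysyl hydroxylase that modifies collagen, had 101 to 120 CPM in WT and 166 to 194 in the mutants, a log2 difference of 0.73 ± 0.06 SE. Fbxo44, an F-box protein, had 1.20 to 1.62 CPM in WT and 2.26 to 6.32 in the mutants. The window thus mixed both directions among neighbours. Zfp984, Zfp979 and Zfp985 are related in sequence, so reads may be split between them.

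**Figure D5:**
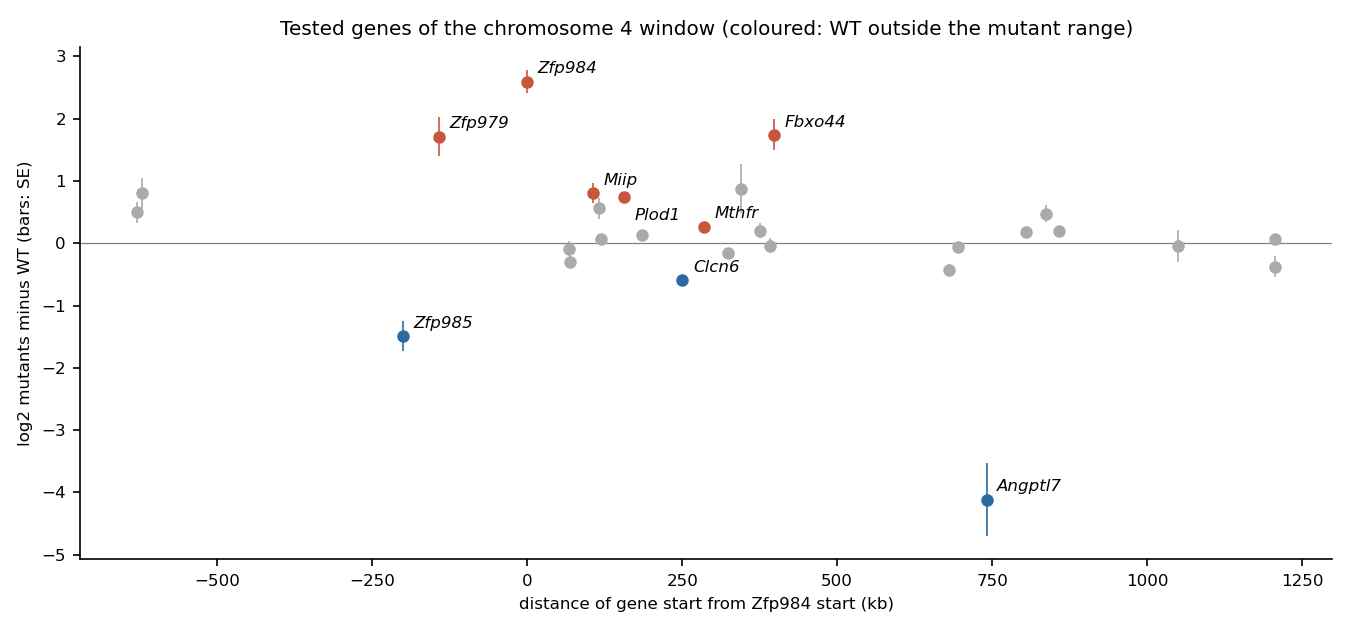
Log2 difference of the mutants from WT with its SE (y axis) for tested genes of the chromosome 4 window, against distance of each gene's start from that of Zfp984 (x axis, kb); genes under 0.5 CPM are not drawn. Separated genes are coloured, with Zfp984 at 2.60 and Angptl7 at -4.12 as the extremes.

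Another cluster stood on chromosome 6, from 135 to 137 Mb, 7.92 Mb beyond Fgf23, where 9 of 21 genes tested (42.9%) were separated. Hist4h4 and its neighbours H2afj, Wbp11 and Smco3 were above WT, and Gm19434, Fam234b, Gsg1, Pbp2 and Atf7ip were below. H2afj, a variant histone H2A, had 26.2 to 33.4 CPM in WT and 45.3 to 65.1 in the mutants. Pbp2 had 1.32 to 3.13 CPM in WT and 0 to 0.468 in the mutants, and Smco3 0.0604 to 0.191 and 0.689 to 2.94. A further window, on chromosome 4 from 117 to 119 Mb, held Ebna1bp2 above WT together with Cfap57 and D4Ertd617e below, whose annotated spans both overlap it. Cfap57 had 0.738 to 1.04 CPM in WT and 0.0256 to 0.203 in the mutants. Since the use of strand in counting is not given in the sources used here, reads of these overlapping genes cannot be told apart. On chromosome 11, from 21 to 23 Mb, Commd1 was above WT and B3gnt2 and Vps54 were below, 3 of 11 genes tested.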

How the data were processed

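Total RNA libraries (TruSeq) were sequenced by the authors as paired reads on a NovaSeq 6000 and aligned in StrandNGS to mm10. Its version, annotation and strand setting were not given in the sources used here. Expected counts were deposited by the authors for 45796 genes (23613 at 0 in all libraries), 33.4% of the values with a fraction of a read. The deposited log2 values, scaled by DESeq per the submitters' processing notes and set to the gene's median over the 16 libraries, served only as an alternative. Tables of the authors' own fold changes and p-values against WT were not used. There were 61.9 to 79.5 M counts a library (M for mega).

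The members and gene lists were chosen with earlier results of these data known. Counts were rounded and tested in edgeR 4.0.16 (R 4.3.3; TMM scaling, robust dispersion, quasi-likelihood F test) over all 16 libraries, with a mean per genotype and the 3 mutants weighted equally. The filterByExpr function (minimum count 10, total 15) kept 16430 genes. CPM values are counts relative to the TMM-scaled library total, and separation was read on log2 CPM with a prior count of 0.5. Adjusted p-values are Benjamini-Hochberg values over all genes tested, and SEs are from the same fit. Groups came from the sample labels. The closest pair of libraries within a genotype differed by a mean chi-square of 25.2 per gene, far above sampling noise, so no library was counted as a duplicate.

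Named genes were Dmp1 and Fgf23, the 15 widest gaps per direction at 5 CPM or more with a named symbol, up to 4 separated genes per list (53 lists, 12 of them cell type markers, 1350 genes) at 1 CPM or more, those nearest the edge of the rule, the 8 per direction most alike among the mutants, and 12 bone genes, from which a selection is described. The 8 start windows printed are those with the widest gaps among ribosomal protein genes with a RefSeq start. Genes named in the windows of 2 Mb were chosen after their values were seen. Positions and start windows are from RefSeq (GRCm38.p6, the mm10 assembly), exon lengths and GC content from GENCODE vM21. Date-like symbols (26) were repaired by Entrez ID. The test was run on simulated counts first. Alternatives were other scalings, no filter or 5 CPM, DESeq2 1.42.0, limma 3.58.1 on the deposited log2 values, the 12 mutant libraries as 1 group, leaving out a genotype, a library or a pair of libraries, a gap of 0.5 and, chosen after seeing the data, an offset for exon length and GC content (spline with 5 degrees of freedom).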

Additional observations from a re-analysis of the deposited data

Results flagged for a closer look

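The level of 75 named genes was looked at in each genotype, 300 groups of 4 libraries, for a library far from its group, and 22 such values were found where chance flags about 5% of groups. Most were small shifts. In WT, library 3 was far from the others for Nolc1 (36.1 CPM), Vegfa (71.0 CPM) and Fth1 (1450 CPM), and library 1 for Dennd1c (15.8 CPM). In Fgf23cKO, library 1 stood apart for Rrp15 (7.72 CPM), Gas5 (29.3 CPM), Atf3 (53.3 CPM), Prkab2 (17.9 CPM), Ston1 (33.9 CPM) and Ibsp (7840 CPM), and library 4 for Mrps15 (13.9 CPM) and Deptor (17.9 CPM). In Dmp1KO, library 1 stood apart for Fth1 (3050 CPM), Capg (227 CPM) and Alpl (1120 CPM), library 2 for Cul7 (80.1 CPM), library 3 for Scarna13 (14.6 CPM) and Psmc1 (76.2 CPM), and library 4 for Commd1 (50.6 CPM). In Dmp1KO/Fgf23cKO, library 3 stood apart for Psmc1 (62.4 CPM) and Sost (78.8 CPM), and library 2 for Capg (239 CPM). The Commd1, Rrp15 and Gas5 values lie on the side nearer to WT and still outside it.

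The change from WT differed between the mutants for 14 of these genes by edgeR's quasi-likelihood test of equal mutant means with Benjamini-Hochberg adjustment over all genes. The targeted genes had adjusted p = 0.000149 for Dmp1 and adjusted p = 2e-06 for Fgf23. Among genes above WT the adjusted p was 0.0486 for Scarna13, 0.0224 for Mrps15, 0.0335 for Nolc1, 0.0469 for Utp3, 0.0441 for Gas5, 0.038 for Ddit3, 0.0309 for Hspe1, 0.0305 for Rars, 0.0271 for Myc and 0.0379 for Sqstm1. Among genes below WT it was 0.021 for Lrp5 and 0.0467 for Hspg2. Of these, Sqstm1 had its largest change in Fgf23cKO and the other separated genes in Dmp1KO.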

How the results depend on the processing

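Scaling by library totals alone gave 1303 genes higher and 2881 lower in the mutants, with 513 above and 845 below WT, and moved the median log2 difference of all genes from -0.02 to -0.12. The number of genes called lower was 1136 with the 12 mutant libraries as 1 group. DESeq2 called 3689 genes for the difference among the mutants. Without the Dmp1KO genotype 1399 genes were called higher and 878 lower. Without the Fgf23cKO genotype 1337 were above and 885 below WT, and without the Dmp1KO/Fgf23cKO genotype 927 were below, where fewer libraries make separation easier. Without libraries 1 and 2 of Dmp1KO/Fgf23cKO 3171 genes were called higher and 3472 lower, with 1112 above and 872 below, and without its libraries 3 and 4 these were 2106, 1759, 947 and 497. A gap of at least 0.5 left 31 genes above and 20 below, with 8 ribosomal protein genes among the former. The offset for length and GC content, chosen after seeing the data, gave 3010 called higher and 1075 lower, with 1224 above and 191 below. Apart from these constructions the cause of each shift was not tested.

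Leaving out 1 library at a time gave 1352 (without WT 4) to 2552 (without Dmp1KO/Fgf23cKO 2) genes called higher, 1013 to 2225 called lower for the same libraries, 897 to 1074 above and 474 to 713 (without WT 1) below. The difference among the mutants ranged from 444 genes (without Fgf23cKO 2) to 3127 (without Dmp1KO 1). Separated ribosomal protein genes numbered 58 to 64 and the median of all genes -0.0207 to -0.0105. Apart from shifts in scaling and filter, fewer libraries make separation easier, so the ranges of separated genes say little about stability. Among single genes, Sost reversed to -0.4895 on the deposited log2 values, -0.1534 without the Dmp1KO/Fgf23cKO genotype and -1.721 without its libraries 3 and 4, where one library held 78.8 CPM. Fgf23 reversed to 0.6222 with the mutants as 1 group, in which high and low genotypes are averaged by library. Spp1 reversed to -0.0218 without Dmp1KO/Fgf23cKO libraries 1 and 2, Enpp1 to 0.02682 without its libraries 3 and 4 and to 0.01019 under the length and GC offset, and Kmt2c, separated below WT, to 0.03481 under the same offset. No paired analysis was possible because the labels give the genotypes no shared replicate numbers. Depth limits genes with values of 0 in some libraries, since 0 is few reads from the lowest values above it.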

Other observations

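Some separated genes belong to groups with members separated in both directions. Of 19 tested clock genes 6 were called higher and 1 lower, and 3 (15.8%, against 5.35% of all genes tested) were separated above and 1 below. Those above were Rorb, Bhlhe40 and Cry1, a repressor of the clock (8.49 to 10.2 CPM in WT, 10.7 to 15.9 in the mutants). Per3, another clock repressor, was below (21.9 to 30.2 CPM in WT, 14.8 to 21.6 in the mutants). Scaling by library totals gave 4 clock genes higher and 3 lower, with 1 separated above and 2 below. After the offset for length and GC content the Per3 values overlapped. Of 34 genes of BMP and TGF-beta signalling 3 were called in each direction, where 13.1% of all genes tested were called higher and 11.1% lower. The list had 1 gene separated each way, against 5.35% above and 2.92% below over all genes tested. These were the ligand Tgfb1 above WT (218 to 229 CPM in WT, 245 to 325 in the mutants) and the receptor Bmpr2 below (407 to 452 CPM in WT, 275 to 395 in the mutants). With the offset for length and GC content Bmpr2 was no longer separated or called (log2 difference -0.08, edgeR, adjusted p = 0.319), and scaling by library totals left Tgfb1 overlapping with WT. Of 41 chromatin regulators 11 were called higher and 3 lower, with 2 separated above and 3 below, and scaling by library totals turned this to 3 higher and 7 lower, while the offset gave 19 higher, 1 lower, 11 separated above and none below. Among 374 tested genes with a Zfp symbol, 7 (1.87%) were above WT and 16 (4.28%) below, against 5.35% and 2.92% of all genes tested, and 22 were called higher and 56 lower.

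Many lists with members outside the bone programme had none separated. Of 30 chemokine and NF-kB genes, 32 interferon-stimulated genes and 26 genes of cholesterol and fatty acid synthesis, none had WT outside the mutant range, against 5.35% above and 2.92% below over all genes tested, with 2, 1 and 4 called lower and 0, 1 and 0 higher. Scaling by library totals gave 14 lower in the last list.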
